A study of Mus musculus with 8 samples.

Results

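The RNA levels of 31 enzyme genes of nucleotide, serine and one-carbon synthesis were followed in 8 mouse neuroblastomas. The genes were chosen by name for the reaction their enzymes carry out, and all probe sets that name such a gene and no other were used. Of the 31 genes, 30 had such a probe set, against 18194 genes on the whole array, and Impdh2 had none. The 30 genes were read by 76 single-gene probe sets, and 21 of them had more than 1.

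The tumors arose in LSL-MYCN;Dbh-iCre mice. These carry human MYCN behind a CAG promoter and a loxP-flanked stop (LSL) in the ROSA26 locus, followed by luciferase. The Cre recombinase is driven by Dbh, the gene of the enzyme that makes noradrenaline, so the stop is removed in cells that use Dbh, such as those of sympathetic ganglia and the adrenal medulla. Tumors 1 to 6 were adrenal, and tumors 7 and 8 grew at the superior cervical ganglion, which belongs to the sympathetic chain in the neck. All 8 share the genotype and were untreated when excised. The paper gives a mixed strain background for the line, and the labels give neither age nor sex. Normal adrenals were not analysed here, so levels are compared among the tumors. Whether the 8 tumors stem from 8 mice is not stated in the sources used here, and p-values therefore measure the spread between these tumors, which may be technical.

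Dividing cells build the purine ring on phosphoribosyl pyrophosphate (PRPP), an activated ribose, and join the finished pyrimidine ring to the same molecule. Serine, made from a glycolysis intermediate, gives a carbon to tetrahydrofolate, and the folate cycle hands such carbons to the purine ring and to thymidylate. Many of these enzymes are known targets of MYC proteins, and the serine enzymes and Mthfd2 are also known targets of ATF4, a factor of the amino acid stress response.

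Values are log2 array signals, so a difference of 1 is a 2-fold difference. A probe set was called detected in a tumor above the 95th percentile of 84 probe sets for olfactory, vomeronasal and taste receptors, which was 6.71 to 7.21. The signals of different genes are not set against each other, because probe sets differ in how brightly they bind. By this limit 29 of the 30 genes were detected in all 8 tumors, the exception being Tyms. Of the 11 measured markers of noradrenergic neuroblasts 10 were detected in all 8 tumors, but their levels were lower in tumor 7. Th was 10.36 in tumor 7 and 13.62 to 14.25 elsewhere, Ddc was 7.38 against 13.66 to 14.25, and Gata3 was 5.22, below the detection limit, against 11.12 to 11.80. On that list 9 markers were at least 2-fold lower in tumor 7 than the mean of the others, and the mean of the list, centred per gene, was -2.65 there and 0.14 to 0.62 elsewhere. The markers fell unevenly, with differences from the mean of the others of -0.36 for Isl1 and -0.92 for Hand2 but -6.72 for Ddc. In bulk samples fewer cells of a type and less RNA per cell cannot be told apart. Tumor 6 held liver transcripts (Alb 14.09, against at most 5.96 elsewhere), with all 12 hepatocyte markers highest there, and tumor 1 had the largest gap between the 3′ and 5′ probe sets of Gapdh, a sign of broken RNA, at 5.51 against 0.47 to 1.57. Tumor 7 came next, with 1.57 for Gapdh and 1.85 for the same measure of actin, against 0.64 to 1.35 for actin in the tumors other than 1 and 7, and the part of this gap in the levels of tumor 7 was not tested. Results that rest on tumor 7 are given with and without it, and those that rest on tumor 1 with the readings of other probe sets.

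The windows before the transcript starts of a few genes are shown as a description, and no level below was tested against them. Phgdh and Shmt2 are the members with the largest difference between tumor 7 and the rest, and Atic and Paics carry CACGTG, the E-box that MYC proteins bind, in a window of 250 bases before to 50 after the start. Sequences are from RefSeq on GRCm38.p6, read 5′ to 3′ on the strand of the gene, and the capitals mark CACGTG. For Phgdh, Shmt2 and Atic the 250 bases before the start are given, at chr3:98339970-98340219 on the minus strand, chr10:127522445-127522694 on the minus strand and chr1:71556906-71557155 on the plus strand. For Paics a stretch of 30 bases around the motif is given, at chr5:76951087-76951116 on the plus strand.
Phgdh: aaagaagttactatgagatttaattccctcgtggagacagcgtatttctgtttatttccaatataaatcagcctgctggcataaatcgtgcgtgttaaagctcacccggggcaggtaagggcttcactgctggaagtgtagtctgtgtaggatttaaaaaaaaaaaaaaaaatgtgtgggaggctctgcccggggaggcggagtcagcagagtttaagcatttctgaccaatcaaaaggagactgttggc
Shmt2: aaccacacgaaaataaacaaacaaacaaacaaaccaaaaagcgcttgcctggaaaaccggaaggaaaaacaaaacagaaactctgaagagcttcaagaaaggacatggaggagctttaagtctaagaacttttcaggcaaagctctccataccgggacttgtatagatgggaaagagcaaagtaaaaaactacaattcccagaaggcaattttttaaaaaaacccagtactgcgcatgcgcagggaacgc
Atic: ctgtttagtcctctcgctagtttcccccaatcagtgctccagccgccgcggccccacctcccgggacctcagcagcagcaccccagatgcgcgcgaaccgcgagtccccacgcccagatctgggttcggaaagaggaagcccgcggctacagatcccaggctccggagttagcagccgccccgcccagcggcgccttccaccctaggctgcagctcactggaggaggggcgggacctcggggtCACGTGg
Paics: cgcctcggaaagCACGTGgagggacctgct

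A window was held in the RefSeq table for 28 of the 30 measured genes, with 33 windows in all. Pfas and Dhodh were not among them. CACGTG reads the same on both strands. It was in 3 of the 33 windows, each of a different gene, against 7.15% of the 32851 windows of all genes. Its last base lay 2 bases before the start in Atic, 56 before it in Tyms and 198 before it in Paics. The window of Prps1 held TGATGNAA on either strand, the ATF4 element, which 3.97% of all windows hold. TTTGGCGC or TTTCCCGC on either strand, forms of the E2F motif, were in 2 of the 33 windows, against 1.56% of all. These were windows of Ppat and Prps2. The Phgdh and Shmt2 windows held none of the 3 motifs, which says only that these letters are not in these 300 bases. A match is a description of the sequence and not a measured binding site. Ppat and Paics are annotated in opposite directions, and their first 277 bases overlap.

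Across the tumors the members were uneven, and the most uneven of them were high in tumor 7. The median SD was 0.37 over the 30 members and 0.26 over the 16254 genes tested, those above log2 5 in at least 2 tumors. Without tumor 7 these medians were 0.30 and 0.23. In tumor 7, 6 members lay at least 2-fold above the mean of the other 7 tumors (Ppat, Pfas, Phgdh, Psat1, Shmt1 and Shmt2), against 4.59% of all genes tested. None lay 2-fold below it, against 5.91% of all genes. The highest level was in tumor 7 for 18 of 30 members, against 17.3% of all genes, and the median member difference was 0.71 against -0.07 over all genes. In the other tumors no member was 2-fold above the rest, where 1.62%, 1.76%, 0.732%, 0.517%, 1.4% and 2.22% of all genes were in tumors 1 to 6 and 1.05% in tumor 8. There were 1 member in tumor 3, 2 in tumor 4 and 1 in tumor 8 that lay 2-fold below (1.54%, 1.26% and 0.468% of all genes), and 0 in tumors 1, 2, 5 and 6 (2.04%, 0.64%, 2.07% and 0.203%). Those 4 values belonged to Phgdh and Shmt2, whose means of the other tumors include tumor 7. The plot of all members by tumor shows this pattern, with Mthfd1 just inside the 2-fold limit at 0.998 and Ppat just past it at 1.04.

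**Figure D1:**
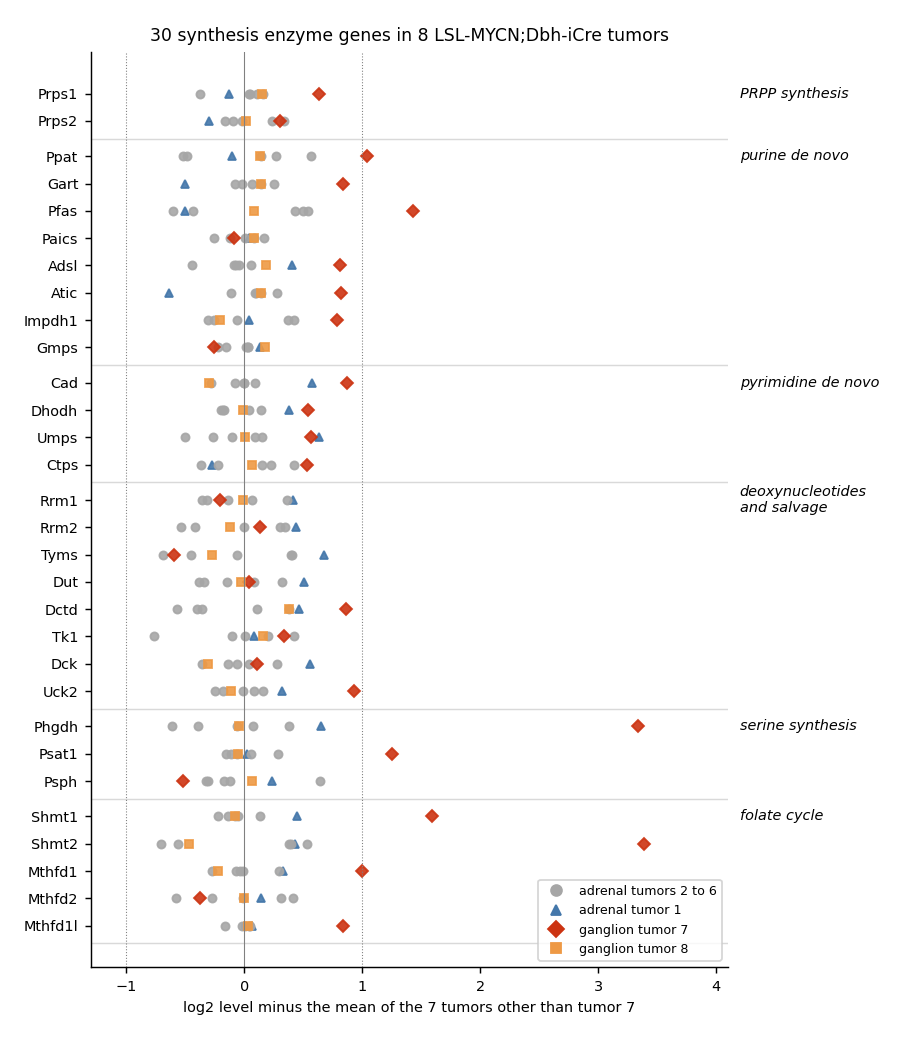
Log2 level of the 30 enzyme genes in each of the 8 tumors, minus the mean of the 7 tumors other than tumor 7 (x axis), 1 point per tumor and dotted lines at a 2-fold difference. Tumor 7 lies at 3.34 for Phgdh and 3.39 for Shmt2, while the points of the other tumors lie between -1 and 1 for all 30 genes.

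Serine synthesis and the folate cycle held the largest differences. Phgdh, which takes 3-phosphoglycerate out of glycolysis as the entry step, was 9.31, 8.73, 8.59, 8.04, 8.26 and 9.03 in adrenal tumors 1 to 6, 11.99 in tumor 7 and 8.61 in tumor 8. Tumor 7 thus lay 10.1-fold above the mean of the others and outside their range, and tumor 8 lay among the adrenal tumors. All 4 Phgdh probe sets were highest in tumor 7, by 2.60 to 4.66 over the mean of the rest, and all 4 are of a class of probe sets whose probes may also bind other transcripts. Psat1, the aminotransferase of the second step, was 11.04, 11.30, 11.07, 10.96, 10.86 and 10.91 in tumors 1 to 6, 12.27 in tumor 7 and 10.96 in tumor 8. Its difference in tumor 7 was 1.25, or 2.38-fold, and its other probe set gave 1.35.

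Psph, the phosphatase that releases serine in the last step, did not follow the other enzymes. It was 8.89, 9.30, 8.48, 8.54, 8.35 and 8.33 in tumors 1 to 6, 8.14 in tumor 7 and 8.72 in tumor 8. The lowest level was thus in tumor 7 and the highest in tumor 2. Psph had a single probe set, so no other reading of this gene was at hand.

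Of the 5 folate cycle genes, 4 were highest in tumor 7. Shmt2, the mitochondrial enzyme that splits serine into glycine and a folate-bound carbon, was 8.57, 8.68, 7.44, 7.58, 8.52 and 8.54 in tumors 1 to 6, 11.54 in tumor 7 and 7.68 in tumor 8. Tumor 7 was 10.5-fold above the mean of the rest. Among the remaining tumors the levels were 8.52 to 8.68 in tumors 1, 2, 5 and 6 and 7.44 to 7.68 in tumors 3, 4 and 8. Another Shmt2 probe set detected in all 8 tumors gave 0.50 for tumor 7. A further one, at 9.41 in tumor 7, was detected in 4 tumors, and the last, at 7.36, in tumor 7 alone. The probe set used and 2 of the others are of the same class as those of Phgdh, and the one at 9.41 is not. Shmt1, the cytosolic form, was 9.86, 9.19, 9.54, 9.27, 9.35 and 9.33 in tumors 1 to 6, 11.00 in tumor 7 and 9.33 in tumor 8. Its difference of 1.59, or 3.01-fold, was 0.90 to 1.90 over its 4 probe sets. Liver is rich in Shmt1, and its level of 9.33 in tumor 6, where liver transcripts were found, lay within the range of the other adrenal tumors.

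Mthfd1l, which releases formate from the mitochondrial carbon, was steady outside tumor 7, with an SD of 0.08 over the other 7 tumors. It was 9.59, 9.58, 9.53, 9.57, 9.51 and 9.36 in tumors 1 to 6, 10.37 in tumor 7 and 9.56 in tumor 8. Mthfd1, the cytosolic enzyme that recharges folate with formate, was 10.29, 9.89, 9.93, 9.95, 9.68 and 10.25 in tumors 1 to 6, 10.96 in tumor 7 and 9.74 in tumor 8. For both genes tumor 7 was above all other tumors. Mthfd2, the mitochondrial dehydrogenase between Shmt2 and Mthfd1l, ran otherwise. Its levels were 11.62, 11.89, 11.20, 11.47, 11.78 and 10.89 in tumors 1 to 6, 11.10 in tumor 7 and 11.47 in tumor 8. The difference of tumor 7 was -0.38 here and 0.32 by the other Mthfd2 probe set, so its direction was not settled. Tumor 2 was highest by both. The profiles of all serine and folate probe sets show these patterns side by side.

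**Figure D2:**
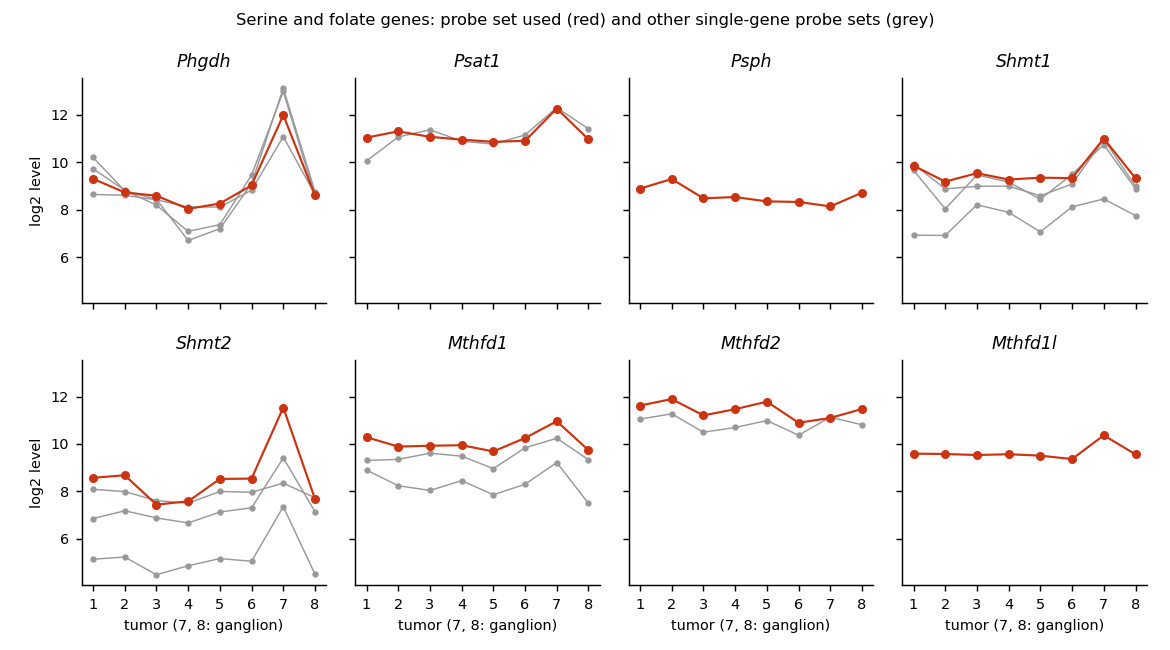
Log2 level (y axis) of each single-gene probe set of the 8 serine and folate cycle genes in tumors 1 to 8 (x axis), with the probe set used for the gene in red and the others in grey. Lines join the values of 1 probe set and mark no order of the tumors; tumor 7 is the peak for Phgdh, Psat1, Shmt1, Shmt2, Mthfd1 and Mthfd1l but not for Psph.

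Purine synthesis starts from PRPP, which the Prps enzymes make from ribose 5-phosphate. Prps1 was 10.91 to 11.45 in the adrenal tumors (11.27 ± 0.20, SD, n = 6), 11.93 in tumor 7 and 11.44 in tumor 8. Prps2 was 9.93 to 10.57 in the adrenal tumors, 10.54 in tumor 7 and 10.25 in tumor 8. Prps1 was highest in tumor 7. For Prps2 tumors 2 and 7 were level on this probe set, and a second one detected in all 8 tumors was highest in tumor 7, at 8.07 against 6.91 to 7.53.

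Of the 8 measured genes of purine synthesis after PRPP, 6 were highest in tumor 7 on the probe sets used. Ppat, the amidotransferase that commits PRPP to purines, was 9.78, 9.36, 10.45, 10.02, 9.40 and 10.15 in tumors 1 to 6, 10.92 in tumor 7 and 10.02 in tumor 8. Pfas, which adds a nitrogen from glutamine, was 8.76, 8.65, 9.76, 9.68, 8.83 and 9.79 in tumors 1 to 6, 10.69 in tumor 7 and 9.34 in tumor 8. Tumor 7 exceeded the mean of the others by 1.04 for Ppat and 1.43 for Pfas. Among the adrenal tumors both genes were lowest in tumors 1, 2 and 5 on the probe sets used. A second Ppat probe set detected in all 8 tumors gave 8.09 in tumor 1, against 7.59 to 8.15 in adrenal tumors 2 to 6. Pfas had a single probe set.

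Further steps gave smaller differences. Gart, an enzyme of 3 activities that takes up a carbon from folate, was 9.65 to 10.40 in the adrenal tumors, 10.99 in tumor 7 and 10.29 in tumor 8, and all 4 of its probe sets were highest in tumor 7. Adsl, which splits off fumarate in 2 steps of the pathway, was 9.67 to 10.51 in the adrenal tumors, 10.92 in tumor 7 and 10.30 in tumor 8. Impdh1, on the branch to guanine nucleotides, was 8.58 to 9.30 in the adrenal tumors, 9.66 in tumor 7 and 8.68 in tumor 8. These 3 genes had differences of 0.84, 0.81 and 0.78 for tumor 7. Atic, which closes the ring with a folate carbon and has the E-box next to its start, was 10.21 to 11.13 in the adrenal tumors, 11.67 in tumor 7 and 10.99 in tumor 8. Its difference was 0.82 on this probe set and -0.49 on a second one, so the direction of Atic in tumor 7 was not settled.

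Paics and Gmps did not share the pattern. Paics, the enzyme of a middle pair of steps, had the lowest SD of all members at 0.14. It was 13.30, 13.14, 13.43, 13.34, 13.00 and 13.27 in tumors 1 to 6, 13.17 in tumor 7 and 13.34 in tumor 8, and the differences of tumor 7 on its 3 probe sets were -0.09, -0.10 and -0.07. Gmps, which makes GMP, was 10.55 to 10.90 in the adrenal tumors, 10.51 in tumor 7 and 10.94 in tumor 8. Tumor 7 was the lowest for Gmps on all 3 probe sets, with a difference of -0.26 on the one used and of -0.92 and -0.72 on the others. Ppat and Paics, neighbours with overlapping starts, thus differed in tumor 7 while over the other tumors both were lowest in tumors 2 and 5.

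Of the 4 genes of pyrimidine synthesis, 3 were highest in tumor 7. Cad, whose protein carries the first 3 activities of the pathway, was 10.34, 9.76, 9.69, 9.86, 9.49 and 9.77 in tumors 1 to 6, 10.64 in tumor 7 and 9.47 in tumor 8. Umps, which makes UMP, was 10.20, 9.06, 9.71, 9.65, 9.30 and 9.46 in tumors 1 to 6, 10.13 in tumor 7 and 9.57 in tumor 8. Tumors 1 and 7 led for both. The lead of tumor 1 did not hold on other probe sets, since a second Cad probe set was lowest in tumor 1 (8.61 against 8.92 to 10.03) and a second Umps probe set gave 9.53 there against 10.17 in tumor 7. Dhodh, the mitochondrial dehydrogenase, was 8.74 to 9.32 in the adrenal tumors, 9.48 in tumor 7 and 8.93 in tumor 8. Ctps, which makes CTP from UTP, was 11.02 to 11.81 in the adrenal tumors, 11.92 in tumor 7 and 11.45 in tumor 8.

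The genes of DNA precursors followed another order. Rrm1 and Rrm2, the large and the small subunit of ribonucleotide reductase, were highest in tumor 1 and lowest in tumor 5 on the probe sets used. Rrm1 was 12.11, 11.38, 12.06, 11.76, 11.34 and 11.55 in tumors 1 to 6, 11.49 in tumor 7 and 11.68 in tumor 8. Rrm2 was 13.39, 12.54, 13.26, 13.30, 12.41 and 12.95 in tumors 1 to 6, 13.09 in tumor 7 and 12.83 in tumor 8. Tumor 7 lay within the adrenal range for both, with differences of -0.21 for Rrm1 and 0.14 for Rrm2 from the mean of the others. Dut, which clears dUTP, was 12.10 to 12.99 in the adrenal tumors, 12.53 in tumor 7 and 12.45 in tumor 8.

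The salvage kinases Tk1 and Dck had their lowest levels in tumor 5. Tk1, the thymidine kinase of dividing cells, was 9.40, 9.21, 9.52, 9.73, 8.55 and 9.32 in tumors 1 to 6, 9.65 in tumor 7 and 9.48 in tumor 8. Dck, the deoxycytidine kinase, was 11.89 to 12.80 in the adrenal tumors, 12.36 in tumor 7 and 11.94 in tumor 8. All 3 detected Dck probe sets were lowest in tumor 5. Tyms, which makes thymidylate, passed the detection limit of its array in tumor 4 alone (6.86, against a limit of 6.73), while its 7.13 in tumor 1 was below the limit of 7.18 there. Its levels have no order, and a further probe set that also names a pseudogene was not used. Dctd, the dCMP deaminase, was 8.85 to 9.88 in the adrenal tumors, 10.29 in tumor 7 and 9.80 in tumor 8. Uck2, the uridine-cytidine kinase, was 10.76 to 11.32 in the adrenal tumors, 11.93 in tumor 7 and 10.89 in tumor 8. Dctd and Uck2 were thus the 2 genes of this group of 8 with their highest level in tumor 7, and all 5 detected Uck2 probe sets shared it.

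Tumor 5 held the lowest level for 11 of 30 members, against 14.4% of all genes, with a median difference of -0.37 from the other tumors, against -0.03 over all genes. Tumor 6 was highest for no member, against 5.19% of all genes, and tumor 2 for 3 members, Prps2, Psph and Mthfd2, against 16.3%. Tumor 1 held the highest level of 6 members, against 26.3% of all genes, and 5 of these were genes of DNA precursors and salvage, among them Tyms, which was below the limit there. The readings of tumor 1 differed by probe set. Of 20 members with at least 2 probe sets detected in 2 or more tumors, 15 had probe sets on both sides of the mean of the other tumors in tumor 1, and 2 in tumor 7. A second Rrm2 probe set was lowest in tumor 1, at 8.41 against 8.78 to 10.79, and the remaining detected one was highest in tumor 3. A second Rrm1 probe set gave 6.87 in tumor 1 against 7.81 to 9.89 elsewhere, where the one used was highest, and a second Psat1 probe set gave 10.06 against 10.77 to 12.31. The Gapdh gap of 5.51 in tumor 1 stands beside these values, and its part in them was not tested.

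**Figure D3:**
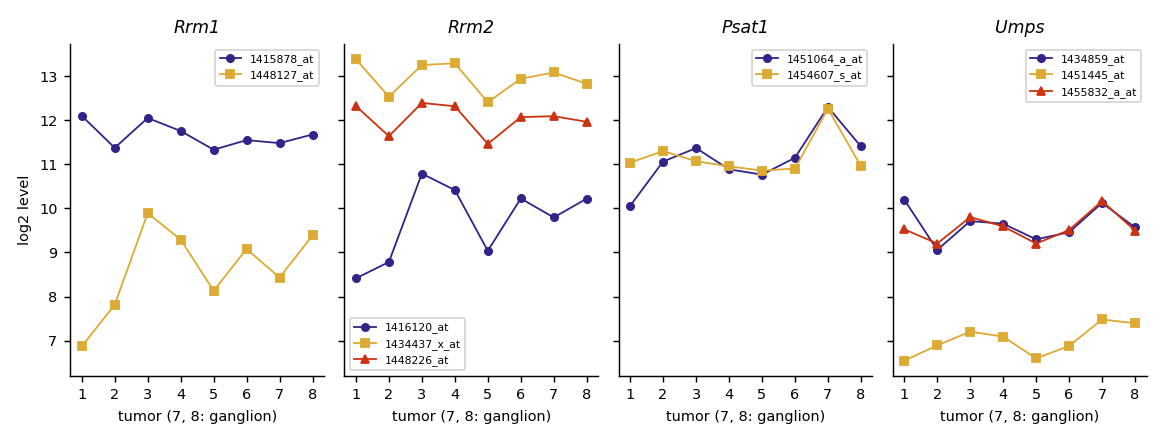
Log2 level (y axis) of each probe set of Rrm1, Rrm2, Psat1 and Umps that was detected in at least 2 tumors, in tumors 1 to 8 (x axis); lines join the values of 1 probe set and mark no order. In tumor 1 the readings of a gene part, as for Rrm1 at 12.11 and 6.87, while in tumor 7 the Psat1 and Umps readings are all high.

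The means by pathway, taken after centring each gene on its mean over the 8 tumors, place these patterns together. In tumor 7 the mean was 1.19 for serine synthesis and 1.13 for the folate cycle, 0.59 for purines, 0.55 for pyrimidines, 0.41 for PRPP and 0.18 for DNA precursors and pyrimidine salvage. The largest mean of any other tumor was 0.16 for serine synthesis, in tumor 2, and 0.12 for the folate cycle, in tumor 1. DNA precursors and salvage ran from -0.45 in tumor 5 and -0.28 in tumor 2 to 0.22 in tumor 4 and 0.40 in tumor 1. The lead of tumor 1 did not hold with the mean of all probe sets. Tumor 1 was then at 0.12, against 0.15 in tumor 3, 0.23 in tumor 4 and 0.24 in tumor 7. Tumors 5 and 2 stayed lowest, at -0.41 and -0.31. A list of 19 measured S phase genes gave -0.55 and -0.40 in tumors 5 and 2, and 0.37, 0.34 and 0.26 in tumors 3, 1 and 4. In tumor 7 that list was at 0.01, and 14 measured genes of mitosis were at 0.01.

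Other gene lists moved with tumor 7. A list of 20 genes known to be induced by MYC held mostly ribosome and chaperone genes, with some of other roles. Of the 20, 18 were highest in tumor 7 (17.3% of all genes) and 8 were at least 2-fold above the others (4.59% of all genes). The mean of the list was 0.74 in tumor 7 and -0.28 to -0.02 elsewhere. On this list Odc1, the first enzyme of polyamine synthesis, was 13.26 in tumor 7 and 12.30 to 12.85 elsewhere. The mouse Mycn probe set with the highest signal was 7.96 in tumor 7, against 11.59 to 12.74 in the remaining tumors. A second Mycn probe set was also low in tumor 7, at 7.04, with 6.86 in tumor 1 and 8.24 to 9.51 in the remaining tumors. Another varied little over the tumors, at 8.19 in tumor 7 and 8.03 to 8.22 elsewhere. Whether any of them reads the human transgene was not tested. A list of 19 ATF4 response genes outside serine synthesis was at 0.25 in tumor 7, 0.31 in tumor 2 and 0.23 in tumor 8. Skeletal muscle genes differed too (1.11 in tumor 7, 0.58 in tumor 8). So did Schwann cell genes (-1.62 in tumor 7, -1.23 in tumor 5) and macrophage genes (-0.74 in tumor 7, -0.53 in tumor 5). The part of each in the levels of the enzymes was not tested.

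**Figure D4:**
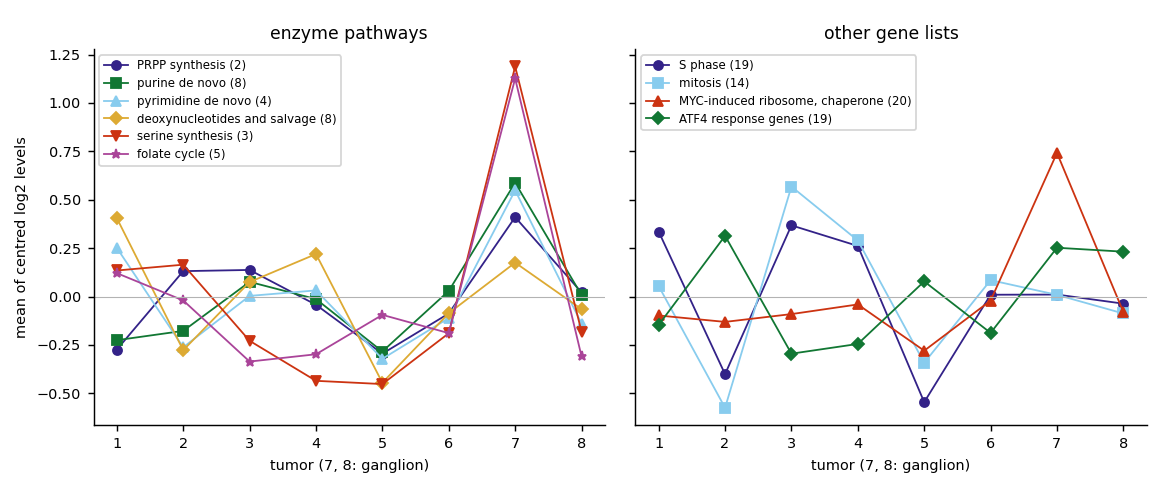
Mean of the centred log2 levels (y axis) over the genes of each enzyme pathway (left) and of 4 other gene lists (right) in tumors 1 to 8 (x axis), with the number of genes in brackets; lines join 1 list and mark no order. Serine synthesis and the folate cycle reach 1.19 and 1.13 in tumor 7, where the MYC-induced genes stand at 0.74 and the S phase and mitosis genes at 0.01.

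The labels group the tumors by site, and the comparison of the 2 ganglion with the 6 adrenal tumors passed the test for none of the 30 members. Limma, with Benjamini-Hochberg adjustment over all genes tested at 0.05, called 3 genes of 16254 (0.0185%), namely Acta1, Clvs2 and Tnnt3. Clvs2 and Tnnt3 had adrenal means of 3.92 and 4.60, under the log2 5 that a gene had to exceed in at least 2 tumors. In tumors 7 and 8 Clvs2 was 6.13 and 6.36, and Tnnt3 was 6.23 and 6.02. These levels lie below the detection limits of those arrays, 6.73 and 6.79. The smallest adjusted p among the members was 0.903. At an unadjusted p below 0.05 there were 0 members, against 761 of all genes (4.68%). The fitted difference was above 0 for 22 members and below it for 8, with a median of 0.30 against -0.03 over all genes. Phgdh was 8.66 ± 0.47 (SD, n = 6) in the adrenal tumors, and the ganglion tumors were 1.64 higher (SE 0.73, 95% interval -0.02 to 3.30). For Shmt2 the difference was 1.38 (95% interval -0.51 to 3.28), for Shmt1 0.74 (-0.11 to 1.60) and for Psat1 0.59 (-0.08 to 1.26). Phgdh was 11.99 and 8.61 in the 2 ganglion tumors, and the estimate lies between them.

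The ganglion tumors were unlike each other. Tumor 8 lay within the range of the adrenal tumors for 28 of 30 members, against 83.9% of all genes, and tumor 7 for 10 of 30, against 55.1%. With tumor 8 left out, limma set tumor 7 alone against the 6 adrenal tumors, assuming that a single ganglion tumor varies as the adrenal ones do, and called 5 members, where 5.87% of all genes were called. They were Phgdh (3.33, SE 0.43, adjusted p = 0.00475), Shmt2 (3.31, adjusted p = 0.00913), Shmt1 (1.58, adjusted p = 0.0124), Psat1 (1.24, adjusted p = 0.0124) and Mthfd1l (0.84, adjusted p = 0.0254). This describes 1 tumor and not the site. With tumor 7 left out, tumor 8 against the adrenal tumors gave 0 called members by limma, 0 at an unadjusted p below 0.05 and 11 called genes in all.

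**Figure D5:**
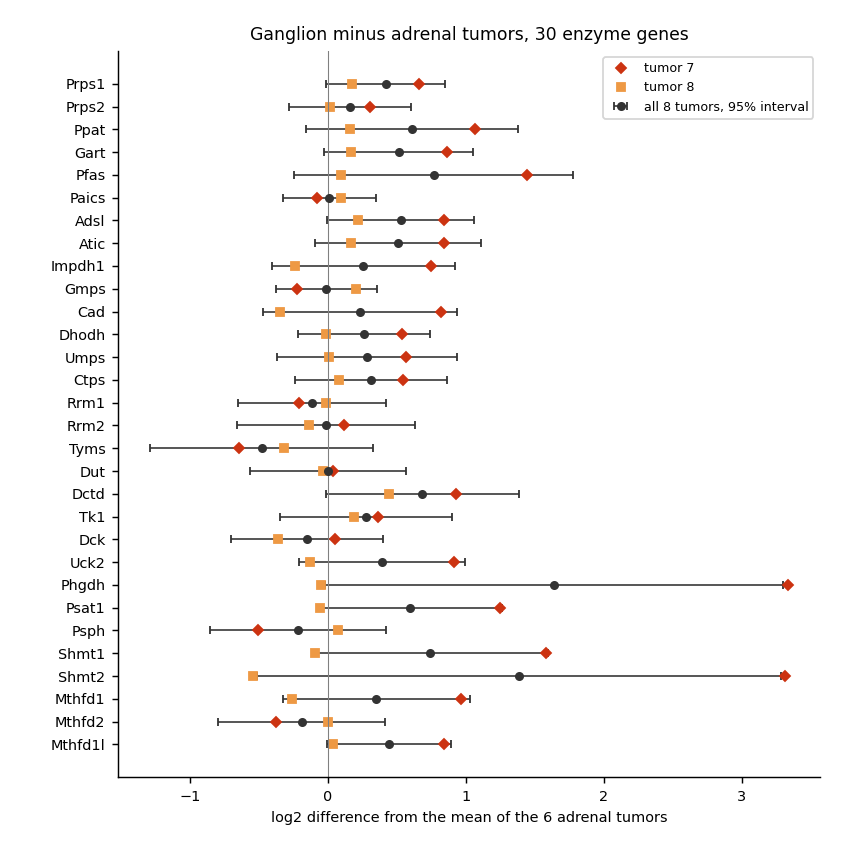
Difference of the ganglion tumors from the mean of the 6 adrenal tumors (x axis, log2) for each enzyme gene, with tumors 7 and 8 as separate points and the limma estimate over all 8 tumors with its 95% interval in black. All 30 intervals include 0, and tumor 7 lies to the right of tumor 8 for Phgdh, Psat1, Shmt1 and Shmt2.

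Other genes of the same pathways were read from lists that do not overlap with the members. Of 56 listed genes 46 were tested, and 0 were called between the sites by limma, with 3 at an unadjusted p below 0.05 (4.68% of all genes). In tumor 7, 3 of the 46 were at least 2-fold above the other tumors (4.59% of all genes) and 2 were 2-fold below (5.91%), counts near those shares, and their median difference was -0.03. The 3 were Slc19a1, the reduced folate carrier, at 11.09 against 9.71 to 10.01, Gldc, which breaks glycine down to a folate-bound carbon, at 10.46 against 8.12 to 9.32, and Ada, the adenosine deaminase, at 8.15 against 6.67 to 7.15. Those below were Ampd3, an AMP deaminase, at 6.18 against 11.09 to 11.81, and Ggh, which trims folate chains, at 7.86 against 8.52 to 9.65. Ada was detected in 3 tumors, and the level of Ampd3 in tumor 7 lay below the detection limit. Ada, Ampd3 and Ggh were named after their values were seen. The highest level was in tumor 7 for 12 of the 46 genes, against 17.3% of all genes. They were 8 of 18 folate, glycine and methyl cycle genes, 3 of 14 purine genes and 1 of the pyrimidine genes.

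A few further genes of salvage and folate steps were named by rule. Hprt, which returns hypoxanthine and guanine to nucleotides, was 11.80 to 12.19 in the adrenal tumors, 12.37 in tumor 7 and 12.22 in tumor 8. Aprt, which salvages adenine, was 12.21 to 12.91 in the adrenal tumors, 12.90 in tumor 7 and 12.68 in tumor 8. Tumor 7 was highest for Hprt and within the adrenal range for Aprt. Rrm2b, the p53-induced small subunit of ribonucleotide reductase, was 9.40 to 9.65 in the adrenal tumors, 9.16 in tumor 7 and 9.66 in tumor 8. Aldh1l2, a mitochondrial folate dehydrogenase, was 9.06 to 9.54 in the adrenal tumors, 8.92 in tumor 7 and 9.58 in tumor 8. Both were lowest in tumor 7.

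Whether related enzymes vary together was read from 9 pairs chosen by role, among them isoenzymes, subunits and steps of a pathway. Each pair was read over the 8 tumors with an exact two-sided permutation test and adjustment over the 9. None passed. Rrm1 and Rrm2 gave a Pearson r of 0.84 (exact permutation p = 0.00982, adjusted 0.0884) and a Spearman rho of 0.88 (p = 0.00724, adjusted 0.0652), and r was 0.81 without tumors 1 and 3, the 2 farthest from the median of Rrm1. Phgdh and Psat1 gave r 0.93 (exact permutation p = 0.0374, adjusted 0.112) and rho 0.55 (p = 0.171, adjusted 0.438), and r was 0.26 without tumors 1 and 7. It was 0.95 without tumor 1 alone and 0.24 without tumor 7 alone, so that relation rests on tumor 7. Cad and Umps gave r 0.78 (exact permutation p = 0.0244, adjusted 0.110) and rho 0.60 (p = 0.132, adjusted 0.438), and r was 0.06 without tumors 1 and 7 together, so it rests on these tumors.

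Ppat and Paics gave r 0.44 (exact permutation p = 0.274, adjusted 0.394) and rho 0.48 (p = 0.243, adjusted 0.438) over all tumors. Without tumors 2 and 7 their r was 0.88, and without tumor 7 alone it was 0.88 with an adjusted exact permutation p of 0.0366. The other pairs, Prps1 with Prps2, Tyms with Tk1, Phgdh with Psph, Psat1 with Psph and Shmt2 with Mthfd2, had r from -0.39 to 0.59 and adjusted exact permutation p from 0.252 to 0.599, with rho from -0.14 to 0.50 (adjusted p from 0.438 to 0.793). Their r without the 2 tumors farthest from the median of the first gene was 0.16 to 0.59. Tyms was detected in 1 tumor, so its pair says little. The points of a pair share an array, and with it its normalization, RNA quality and cell makeup.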

How the data were processed

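RNA of 8 LSL-MYCN;Dbh-iCre tumors (6 adrenal, 2 superior cervical ganglion) was measured on Affymetrix whole-genome mouse arrays, 1 per tumor. The authors deposited log2 values for 45101 probe sets. RMA and Partek 6.6 appear in the submitters' processing notes, whereas gcRMA appears in the Methods. Which of these made the values is not settled, and no further normalization was applied. Values ran from 3.00 to 15.27, and no count of reads or depth exists for arrays, so the number of tumors limits the precision.

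Probe sets were named from the platform annotation, with symbols updated through Entrez identifiers (34754 matched). Of the probe sets, 34958 named 1 gene, 932 several and 9211 none, and 4 that name a member with another gene were not used. The probe set with the highest mean stood for its gene, as in the Methods, and all single-gene probe sets of the members were also read. The fit took the genes that exceeded log2 5 in 2 or more tumors. Sites were compared by lmFit and eBayes of limma 3.58.1 (R 4.3.3), with Benjamini-Hochberg adjustment over all genes of the fit and a threshold of 0.05. RankProd, named in the Methods, was not used. Pairs of enzymes were tested by exact permutation with scipy 1.17.1 (Python 3.11.15). Tables were handled with pandas 2.3.3 and numpy 2.4.6, and matplotlib 3.10.9 drew the plots. The fit was tested on simulated data. Of 10 pairs chosen, Impdh1 with Impdh2 could not be run.

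All members are named in the text. The rule for others took Hprt, Aprt, Rrm2b, Slc19a1, Aldh1l2 and Gldc, genes called between the sites, and from the lists Pcna, Mki67, Npm1, Odc1, Atf4, Asns, Trib3, Chac1 and Mycn. Names outside it are marked or serve as cell markers. Members and lists were chosen with earlier results of these data known. Alternatives covered quantile normalization, filters on low values, the mean of all probe sets, a trended robust limma fit, the detection limit and leaving out tumors. Promoter windows are from RefSeq on GRCm38.p6.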

Additional observations from a re-analysis of the deposited data

Results flagged for a closer look

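For 7 of the 30 members a single tumor stood away from the others, with a gap to its nearest neighbour that took a share of the range over the 8 tumors above Dixon's 95% critical value. In 6 of them it was tumor 7 at the top, and the share of the range was 0.679 for Phgdh, 0.686 for Psat1, 0.629 for Shmt1, 0.698 for Shmt2, 0.528 for Mthfd1 and 0.772 for Mthfd1l. In the other it was tumor 5 at the bottom for Tk1, with 0.554. Chance alone gives such a gap in about 1 of 20 groups. Over all genes tested 15.1% had one, and 7.52% had one with tumor 7 outermost. All 6 genes of tumor 7 belong to serine synthesis or the folate cycle, and none of the 14 genes of PRPP, purine and pyrimidine synthesis was among the 7.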

How the results depend on the processing

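No paired analysis was possible because the groups share no replicate numbers, so no fit with a replicate block was made. Leaving out each tumor in turn gave 0 to 5 called members in the site comparison, the 5 being without tumor 8, and 2 to 954 called genes, with 954 without tumor 8 and 11 without tumor 7. The called genes were 1 with the filter on the detection limit, 6 with the mean of probe sets and 10 without tumors 6 and 7. The site difference ran from -0.0514 to 3.33 for Phgdh, -0.0609 to 1.24 for Psat1, -0.0944 to 1.58 for Shmt1 and -0.54 to 3.31 for Shmt2, each lowest without tumor 7, and the median of the members from 0.00089 to 0.70. Without tumors 6 and 7 the site difference was 0.0229 for Phgdh, -0.0845 for Psat1, -0.11 for Shmt1 and -0.48 for Shmt2, with a median of -0.0183. With the mean of probe sets the members 2-fold below the rest were 0 in tumor 3, 1 in tumor 4, 1 in tumor 5 and 0 in tumor 8, the purine mean of tumor 7 was 0.42, and the pyrimidine mean of tumor 1 was -0.0192. The pairs then gave r 0.87 for Prps1-Prps2, 0.85 for Rrm1-Rrm2 (both past the threshold, adjusted exact permutation p 0.0239 and 0.0372) and 0.10 for Shmt2-Mthfd2. Without tumor 7, r was 0.88 for Ppat-Paics, 0.92 for Rrm1-Rrm2 and 0.88 for Psat1-Psph (past the threshold), 0.31 for Phgdh-Psph and 0.33 for Shmt2-Mthfd2. Without tumors 6 and 7 it was 0.92 for Ppat-Paics, 0.94 for Rrm1-Rrm2 and 0.91 for Shmt2-Mthfd2 (past the threshold), 0.57 for Phgdh-Psph and 0.86 for Psat1-Psph. Leaving out each tumor in turn, r ran from 0.16 to 0.88 for Ppat-Paics, 0.80 to 0.92 for Rrm1-Rrm2, 0.24 to 0.95 for Phgdh-Psat1, -0.49 to 0.31 for Phgdh-Psph, -0.54 to 0.88 for Psat1-Psph and -0.37 to 0.33 for Shmt2-Mthfd2. The causes were not tested. Counted as the same were 325 values that kept their direction and their side of the threshold, or, where no test was run, moved by less than the spread between tumors. Values so counted may still have shrunk, as the site difference of Phgdh did without tumors 6 and 7.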

Other observations

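Tumor 2 had the highest levels of Psph and Mthfd2, and several ATF4 response genes outside serine synthesis peaked in the same tumor, 8 of the 19 measured, against 16.3% of all genes. Asns, which makes asparagine, was 12.53 in tumor 2, against 11.28 to 12.44 elsewhere. Trib3, a pseudokinase of the stress response, was 9.06 in tumor 2 and 7.50 to 8.12 elsewhere, and Chac1, which breaks down glutathione, was 9.01 against 7.27 to 8.41. In tumor 7, where Phgdh, Psat1 and Shmt2 peaked, Trib3 was 7.96 and Chac1 8.28. Of the 19 genes on that list, 5 were highest in tumor 7, against 17.3% of all genes. At least 2-fold above the other tumors there were 3 of them (4.59% of all genes), and 2-fold below were 0 (5.91%). Atf4 itself was 11.85 to 12.36 over the 8 tumors and highest in tumor 7.

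Tumor 6 had the highest levels of several enzymes that liver uses to break down pyrimidines and handle folate and methyl groups. Dpyd, the first enzyme of uracil breakdown, was 9.33 in tumor 6, against 6.00 to 6.87 elsewhere, Dpys was 8.22 against 4.15 to 4.60, and Upb1 was 9.22 against 5.72 to 6.13. Gnmt, a methyltransferase, was 11.21 against 6.61 to 7.04, and Aldh1l1, a cytosolic folate dehydrogenase, was 8.75 against 5.11 to 6.02. Dpyd, Dpys, Upb1 and Aldh1l1 were detected in tumor 6 alone, so their values elsewhere lie below the detection limit. Gnmt was detected in 3 tumors. These 5 genes were named after their values were seen. No member of the synthesis pathways was highest in tumor 6, and the largest difference of a member there from the mean of the others was 0.61 in size. Of the cell cycle genes, Mki67 was 13.39 in tumor 3 and 11.77 in tumor 2, the highest and lowest of the 8, and Pcna was 13.63 in tumor 3 and 12.51 in tumor 5. Npm1, a nucleolar protein gene that MYC induces, was 13.98 in tumor 7 and 13.43 to 13.71 elsewhere.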
